A study of Mus musculus with 18 samples.

Results

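The data are 4 two-colour arrays of murine erythroleukemia (MEL) cells, a mouse line arrested early in red cell development, taken on days 2 and 3 of induction with HMBA (hexamethylene bisacetamide). On each day one array, titled B, carried RNA of HMBA-treated cells in channel 1 and of uninduced control cells in channel 2, and its partner, titled SD, carried the same kinds of RNA in the opposite channels. These are 4 of the 18 arrays in the series. The others are series A, 1 array a day on days 0 to 6, and the remaining series B arrays, which hold a day 0 pair with uninduced RNA in both channels, a single day 4 array, and pairs on days 5 and 6. No culture, clone or HMBA dose was named for any array, so how far the cells of days 2 and 3 were grown apart is not known. The p-values rest only on the spread between the pairs, pooled mainly over all probes.

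MEL cells are leukemic erythroid precursors that keep dividing until an inducer such as HMBA makes them resume maturation. In the textbook course they then switch on globin and heme synthesis, stop dividing within several cell cycles and condense their chromatin, while transcription factors such as Gata1 with its partners Zfpm1 and Ldb1 drive red cell genes and Myb and Myc, which keep precursors dividing, decline. Days 2 and 3 lie in the middle of the series' time course.

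The array carried 6868 probes, each reporting the ratio of its 2 channels. For each probe the B value minus the SD value, divided by 2, gives the HMBA effect on a log2 scale, because the HMBA signal changes sign when the channels are exchanged. The sum of both values divided by 2 gives the probe bias, the part of the ratio that stays put when the RNAs change places. A value on both arrays of a day was present for 2292 probes on day 2 and 1311 on day 3, and 1040 probes (15.1%) had both days. These 1040, of which 918 carried a single gene symbol, make up the comparison, with 1 HMBA effect a day and n = 2 days. A gene without values on all 4 arrays is not counted as unchanged.

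The labels give the channel of each RNA but neither the dyes nor the numerator of the deposited ratio, so the sign was set by the probe annotated to Hba-ps3, an alpha-globin pseudogene whose near-identical alpha-globin relatives cannot be told apart from it here. Alpha-globin is known to rise in induced MEL cells, so its direction is a premise and no finding, and "higher" below means likely higher in HMBA-treated than in control cells. Hba-ps3 read 2.22 on the day 2 B array, -4.25 on the day 2 SD array, 2.07 on the day 3 B array and 0.94 on the day 3 SD array. The day 2 pair thus turned sign with the channels and the day 3 SD array did not, although the SD arrays of days 5 and 6 read -2.78 and -4.20. At this probe the day 3 SD array read below its B partner, and probe bias was 1.51 that day. The pair thus leaves a smaller HMBA effect with the same sign as day 2. Whether the channel label of the day 3 SD array holds, and whether SD values were turned before deposit, was not tested. Effects of named genes are therefore followed by the values of day 2 and day 3. The HMBA effect of Hba-ps3 was 3.24 on day 2 and 0.56 on day 3 (mean 1.90, SE 0.50), given as a description with no test because the sign was set on it.

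Probe bias had a wider spread over probes than the HMBA effect. Its SD over probes was 1.39 on day 2 and 1.16 on day 3, against 0.72 and 0.76 for the HMBA effect, and over probes it correlated at r = 0.77 between the days. The day 0 pair, which holds no HMBA signal, had a pair difference with an SD of 0.61, and 1 of its 1602 probes lay beyond 2 log2 units. On day 2 20 of 2292 probes did so and on day 3 49 of 1311. The median HMBA effect of the tested probes was 0.01 on day 2 and -0.52 on day 3, so day 3 values are shifted downward as a whole. The day 3 effect also followed probe bias over probes (r = 0.32; r = 0.43 with the bias of the day 0 pair), where day 2 gave r = -0.18 and -0.01. The fit was therefore also computed with the shift removed and with the dependence removed.

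Of the 1040 probes, 44 passed a limma adjusted p of 0.05 (4.23% called), 4 higher (0.385%) and 40 lower (3.85%) with HMBA. Hba-ps3 is 1 of the 4 higher probes and, having set the sign, is no result. At an unadjusted p of 0.05 there were 139 probes (13.4%), 8 higher and 131 lower. The split depends on how the day 3 shift is treated. With each pair centred on the median of the tested probes, 54 probes passed, 9 higher and 45 lower. With the straight-line dependence on probe bias removed, 83 passed, 28 higher and 55 lower, and all 44 original probes passed in both recomputations. A size rule without a test, beyond 1 log2 unit in the same direction on both days, held for 55 probes (5.29%), 2 of them higher (0.192%) and 53 lower (5.1%).

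With 2 pairs the p-values rest mainly on a spread pooled over all probes (prior SD 0.70 with 143 prior degrees of freedom), which gives nearly every probe an SE of about 0.49. When the spread was estimated together with the pairs of days 5 and 6, 4 genes passed: the linker histone gene H1f2, higher, and the actin and granule genes Arhgdib, Capg and Srgn, lower (limma adjusted p between 0.0185 and 0.0236). Arhgdib had no pair on days 5 and 6, and Capg only that of day 6. For Arhgdib and Capg the later days thus entered only through the pooled spread, which is no check on their own spread. When the 4 arrays were fitted singly, 10 passed, among them these 4. Against the day 0 pair 1 of 851 passed, Arhgdib. The 4 genes are described first.

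**Figure D1:**
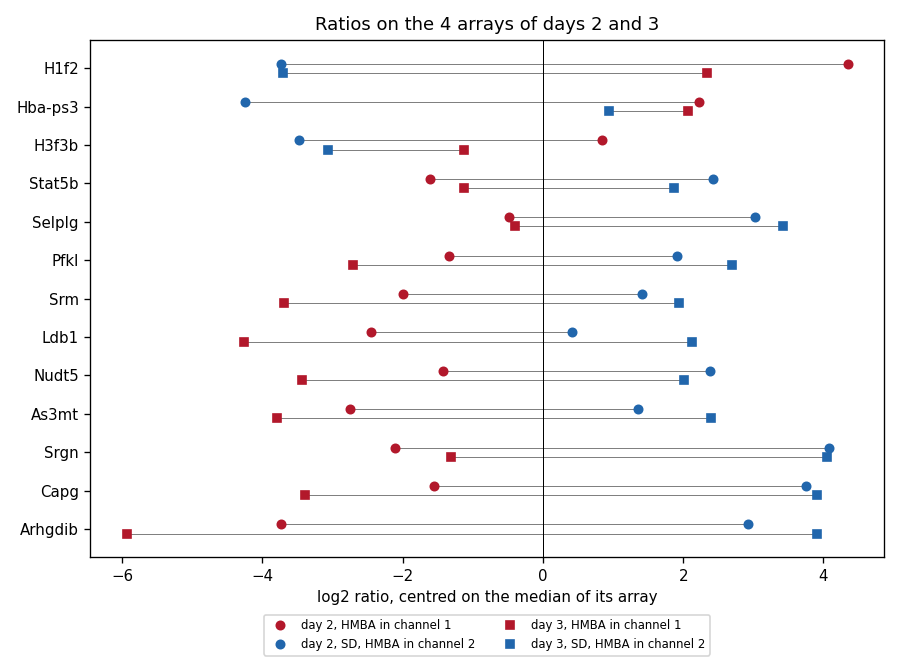
Log2 ratio of 13 genes on each of the 4 arrays, centred on the array median. Circles are day 2 and squares day 3, red marks HMBA RNA in channel 1 and blue HMBA RNA in channel 2, and a grey line joins the arrays of a day. In H1f2 the red points lie to the right of the blue ones on both days, in Arhgdib, Capg and Srgn to the left, and in Hba-ps3 the day 3 points lie close together at 2.07 and 0.94.

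H1f2, which encodes a linker histone that binds the DNA between nucleosomes, was the gene with the greatest rise. It read 4.35 on the day 2 B array and -3.74 on the SD array, and 2.35 and -3.70 on day 3. Both B arrays were thus high and both SD arrays low. The HMBA effect was 4.04 on day 2 and 3.02 on day 3, a mean of 3.53 (SD 0.72, n = 2 days, SE 0.49) or 11.6-fold higher, with a limma adjusted p of 1.74e-08. On days 5 and 6 it stood at 5.23 and 2.98. In series A, H1f2 was at -0.48 from its day 0 value on day 2, the opposite sign, and had no value on day 3. That day 2 array of series A correlated with the other arrays only at r between -0.08 and 0.13.

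Arhgdib fell most. The gene is on the cytoskeleton list and is expressed mainly in blood cells. Its ratios were -3.74 and 2.92 on the day 2 B and SD arrays and -5.94 and 3.91 on those of day 3. The HMBA effect was -3.33 on day 2 and -4.92 on day 3, a mean of -4.13 (SD 1.13, SE 0.49) or 17.5-fold lower (limma adjusted p = 5.53e-11). The day 0 pair, with control RNA in both channels, gave -0.36 at this probe. Against that pair Arhgdib was the 1 probe of 851 to pass (limma adjusted p = 0.00602). In series A, which has no swapped partner, Arhgdib was 2.67 above its day 0 value on day 2 and at -1.20 on day 3, a mean of 0.74 with the opposite sign. That sign comes from the weakly correlated day 2 array alone, while day 3 has the sign of the pairs.

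Capg, an actin filament capping protein of the gelsolin family, read -1.55 and 3.75 on the B and SD arrays of day 2 and -3.40 and 3.91 on those of day 3. The mean HMBA effect was -3.15 (-2.65 and -3.65; SD 0.71, SE 0.49), 8.89-fold lower, with a limma adjusted p of 6.82e-07. The day 0 pair itself gave -1.53 for Capg, and measured against it the gene no longer passed (effect -1.62, adjusted p = 1.00).

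Srgn encodes serglycin, the proteoglycan core on which blood cells pack granule contents. Its ratios were -2.12 and 4.08 on day 2 and -1.31 and 4.05 on day 3, so the SD arrays carried most of the difference. The mean HMBA effect was -2.89 (-3.10 and -2.68; SD 0.29, SE 0.49), 7.42-fold lower (limma adjusted p = 6.57e-06). Days 5 and 6 gave -2.17 and -1.59. In series A, Srgn was 0.59 above its day 0 value on day 2 and at -3.67 on day 3. The day 0 pair lacked a value for Srgn and for H1f2.

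Because these 4 genes moved furthest, the 250 bases upstream of their first listed transcription start are shown, from RefSeq (GRCm38.p6), with matches on either strand to the Klf1-type motif CACCC in capitals. The Gata1-type motif was searched in the same windows.
H1f2, chr13:23738557-23738806 (+ strand): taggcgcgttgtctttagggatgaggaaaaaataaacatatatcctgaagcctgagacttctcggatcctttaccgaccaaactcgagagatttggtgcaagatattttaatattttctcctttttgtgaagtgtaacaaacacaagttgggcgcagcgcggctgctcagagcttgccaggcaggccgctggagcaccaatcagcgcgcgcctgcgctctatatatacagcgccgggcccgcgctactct
Arhgdib, chr6:136941900-136942149 (- strand): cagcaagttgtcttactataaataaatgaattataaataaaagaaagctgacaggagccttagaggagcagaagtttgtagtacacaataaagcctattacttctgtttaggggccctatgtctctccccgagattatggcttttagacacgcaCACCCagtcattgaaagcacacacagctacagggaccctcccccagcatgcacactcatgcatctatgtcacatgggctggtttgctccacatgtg
Capg, chr6:72549397-72549646 (+ strand): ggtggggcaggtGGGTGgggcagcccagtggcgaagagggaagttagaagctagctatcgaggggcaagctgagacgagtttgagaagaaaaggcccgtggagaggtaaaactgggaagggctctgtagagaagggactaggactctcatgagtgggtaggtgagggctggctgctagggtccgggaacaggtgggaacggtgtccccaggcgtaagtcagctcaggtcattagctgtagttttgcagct
Srgn, chr10:62527446-62527695 (- strand): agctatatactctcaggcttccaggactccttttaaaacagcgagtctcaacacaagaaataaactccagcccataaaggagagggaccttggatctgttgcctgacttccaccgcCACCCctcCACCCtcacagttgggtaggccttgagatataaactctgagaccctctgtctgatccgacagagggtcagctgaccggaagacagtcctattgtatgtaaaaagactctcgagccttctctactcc
The Gata1-type motif, searched as the letters AGATAA, was found in none of the 4 windows and in 9.99% of 32851 promoters of the same length. CACCC, searched on both strands, occurred 0 times upstream of H1f2, 1 time upstream of Arhgdib and of Capg and 2 times upstream of Srgn, and 52% of all promoters hold it. Arhgdib has 3 listed starts and Srgn 2, so other windows exist for both. These matches describe letters and not bound sites.

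Among histone genes, 4 were tested and 2 passed, both higher, where 0.385% of all tested probes were called higher. Beside H1f2 this was H3f3b, one of the genes for the replacement histone H3.3, with ratios of 0.84 and -3.48 on day 2 and -1.12 and -3.06 on day 3 and a mean HMBA effect of 1.56 (2.16 and 0.97; SE 0.49, limma adjusted p = 0.0446). All H3f3b ratios but one lay below 0, so its effect rests on the difference between partner arrays. H2az1, for the variant H2A.Z, had an effect of 0.31 (0.48 and 0.14; adjusted p = 0.93), and Macroh2a1, for the macroH2A variant, -0.58 (-0.43 and -0.73; adjusted p = 0.76). H4c14, a replication-dependent H4 gene outside that list, has 2 tested probes. One gave 1.00 (0.98 and 1.03; limma adjusted p = 0.35) and passed with the pairs centred (adjusted p = 0.0242) and with the dependence on bias removed (0.0213). The other gave 0.84 (0.85 and 0.83; adjusted p = 0.50) and passed in the latter only (0.0326). The list's median was 0.94, beside -0.24 over all probes tested.

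The other probe to rise, M003849_01, has no gene symbol. Its HMBA effect was 2.89 on day 2 and 1.35 on day 3 (mean 2.12, limma adjusted p = 0.00338). Below it, several genes were positive on both days without passing. Adam5, an ADAM family gene, had 1.27 (2.08 and 0.47; adjusted p = 0.17). S1pr2, a sphingosine-1-phosphate receptor, had 1.18 (1.90 and 0.45; adjusted p = 0.22). Btg2, an antiproliferative gene, had 1.13 (1.67 and 0.60; adjusted p = 0.25), with 3.08 and 3.05 on days 5 and 6. In each of these the day 2 value was the larger. All 3 passed with the pairs centred (adjusted p = 0.00360, 0.00685 and 0.00957) and with the dependence on bias removed (0.00139, 0.0156 and 0.00379, all from limma).

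The next genes to fall after Arhgdib, Capg and Srgn were enzymes and a nuclear adaptor. As3mt, an arsenite methyltransferase, had an HMBA effect of -2.58 (-2.06 and -3.09; limma adjusted p = 1.20e-04). Nudt5, which hydrolyses ADP-sugars, had -2.31 (-1.90 and -2.73) and Srm, the spermidine synthase of the polyamine pathway, -2.26 (-1.71 and -2.81). Pepd, which splits proline-containing dipeptides, had -2.04 (-1.83 and -2.25), and Golga7, a Golgi protein of the palmitoylation machinery, -2.02 (-1.19 and -2.84). Their adjusted p-values ran from 1.20e-04 to 0.00666 with Ldb1 and Pfkl between them, and in each gene both days pointed the same way. In the pair of day 0 As3mt read -0.01 and Golga7 0.25, against -0.54 for Srm and -0.45 for Pepd.

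Erythroid regulators made up a list of which 9 probes were tested. 3 passed, all lower (3.85% of all tested probes were called lower), and the list median was -0.78 beside -0.24 over all probes (-0.52 with the pairs centred). Of the 9 probes 6 were negative and 3 positive, beside 69.0% negative over all tested probes. Btg2, described above, is on this list and was positive. Ldb1, the adaptor that joins Gata1 and Tal1 complexes at distant enhancers, read -2.45 and 0.42 on day 2 and -4.26 and 2.13 on day 3, an effect of -2.32 (-1.44 and -3.19; SD 1.24, limma adjusted p = 0.00101). Stat5b, a transducer of erythropoietin receptor signals, read -1.61 and 2.42 and then -1.12 and 1.87, an effect of -1.76 (-2.02 and -1.50; SD 0.37, adjusted p = 0.0191). Zfpm1, the Gata1 cofactor FOG1, had -1.69 (-1.20 and -2.18; adjusted p = 0.0263). The day 0 pair gave -0.73 for Zfpm1 and -0.15 for Ldb1, and neither passed when measured against it. All 3 genes were thus lower on day 2 as well as on day 3. Gata1 itself had 0.08 (0.51 and -0.35; adjusted p = 0.98), with the days on opposite sides of 0.

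Globin and heme genes were thinly covered. Of 7 globin probes on the array 3 had all 4 values, and they include Hba-ps3, which set the sign. The embryonic alpha-like Hba-x had 0.24 (0.61 and -0.12) and the adult beta-globin gene Hbb-b2 -0.05 (-0.37 and 0.27), both with adjusted p-values of 0.94 or above. Hbb-b2 turned positive under other scalings, at 0.023 after quantile normalization and 0.21 with the pairs centred, so it has no direction here. Of 10 heme synthesis probes 2 were tested: Cpox, the coproporphyrinogen oxidase, at -0.45 (0.13 and -1.03), and Fech, which inserts the iron, at -0.36 (0.63 and -1.34), neither passing and Fech positive once the dependence on probe bias was removed. Alas2, the first and limiting step of erythroid heme synthesis, had values on the B arrays only, 2.20 on day 2 and 1.09 on day 3, against -0.69 and 1.28 on the day 0 B and SD arrays. Without an SD partner its probe bias cannot be taken out.

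Iron genes showed no called change among 5 tested probes, where 4.23% of all tested probes were called. Tfr2, a transferrin receptor that senses iron, had the largest effect at -1.18 (-0.75 and -1.61; limma adjusted p = 0.22). Tfrc, the main transferrin receptor, had a pair on day 3 only, with 1 effect of -1.84. In series A it was 0.34 above its day 0 value on day 2 and 2.10 above it on day 3, the opposite sign.

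Precursor genes likewise gave no call: 9 tested, none passing, median -0.09, which became 0.17 with the pairs centred. Over all tested probes 4.23% were called and the median was -0.24. Myb, which keeps erythroid precursors dividing, read -2.39 and 1.00 on day 2 and -0.57 and -0.72 on day 3. Its HMBA effect was -1.70 on day 2 and 0.08 on day 3 (mean -0.81, limma adjusted p = 0.54). Kit, the stem cell factor receptor, had a day 2 pair only, at -0.99, and Itga4, the alpha-4 integrin of immature cells, one at 0.99. In series A, day 2 minus day 0 gave 0.24 for Kit and -1.80 for Itga4, both of the opposite sign. For Myb it gave -0.41, and day 3 minus day 0 gave -2.30. The series A day 2 array is the one that correlated weakly with all others. Myc had no complete pair on day 2 or day 3.

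**Figure D2:**
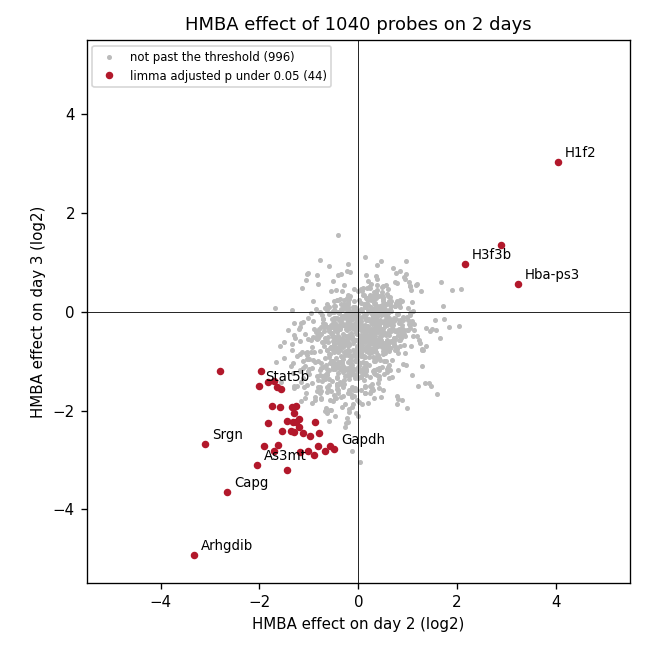
HMBA effect (log2) of the 1040 tested probes on day 2 (x axis) against day 3 (y axis), 1 point a probe. The 44 probes with a limma adjusted p under 0.05 are red, and the cloud is centred near 0 on day 2 and near -0.52 on day 3. H1f2 lies at the upper right and Arhgdib at the lower left.

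Of 19 tested probes for actin and cytoskeleton genes 18 had a negative effect and 4 passed, all lower, where 69.0% of all tested probes were negative and 3.85% were called lower. The list median was -0.46 (-0.15 on day 2 and -0.98 on day 3), beside -0.24 over all probes. It was -0.20 and -0.15 with the pairs centred and with the dependence on probe bias removed. Arhgdib and Capg head it. Arpc1b, a subunit of the Arp2/3 complex that branches actin filaments, had -1.91 (-1.01 and -2.81; limma adjusted p = 0.0119). Tpm3, a tropomyosin that lies along actin, had -1.76 (-1.19 and -2.33; adjusted p = 0.0191).

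Of the red cell membrane and skeleton genes 10 were tested and all 10 had negative effects, 2 of them called, Tpm3 and Cd47, beside 69.0% negative and 3.85% called lower over all tested probes. Cd47, the surface protein that keeps macrophages from engulfing red cells, had -1.56 (-0.88 and -2.24; limma adjusted p = 0.0465). The list median was -0.68 (-0.47 on day 2 and -1.28 on day 3), and -0.42 with the pairs centred.

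Surface and signalling genes had 17 tested probes, of which 2 passed, both lower, beside 3.85% called lower over all tested probes. One is Stat5b. The other is Selplg, the selectin ligand PSGL-1 of blood cells, with ratios of -0.48 and 3.03 on day 2 and -0.40 and 3.42 on day 3. Its HMBA effect was -1.83 (-1.76 and -1.91; SD 0.11, limma adjusted p = 0.0139). The day 0 pair, with control RNA in both channels, gave -1.08 for Selplg. Measured against that pair the effect was -0.75 and no longer passed (limma adjusted p = 1.00), and the B arrays minus the day 0 B array gave 1.26, the opposite sign.

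Glycolysis genes lay lowest of the lists with 5 or more tested probes. All 5 were negative, with medians of -1.19 on day 2 and -1.50 on day 3, and 2 passed, beside 69.0% negative and 3.85% called lower over all tested probes. The 2-day median of -1.41 became -1.15 with the pairs centred. Pfkl, the liver-type phosphofructokinase that commits sugar to glycolysis, read -1.34 and 1.91 on day 2 and -2.71 and 2.70 on day 3, an effect of -2.16 (-1.62 and -2.70; limma adjusted p = 0.00246), with -1.02 on the day 0 pair. Gapdh, the dehydrogenase of the same pathway, had -1.63 (-0.49 and -2.77; adjusted p = 0.0384), most of it from day 3. Ldha, which makes lactate, repeated closely at -1.31 and -1.50 (mean -1.41) without passing (adjusted p = 0.0967). In the series A mean of days 2 and 3 minus day 0, these 3 genes had the opposite sign, at 0.27 for Pfkl, 1.95 for Gapdh and 0.51 for Ldha. For Pfkl the days lay on both sides of 0 (-0.42 and 0.97).

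The proteasome and ubiquitin list had 3 genes called lower of 17 tested, beside 3.85% of all tested probes: Psmd4, a ubiquitin receptor of the regulatory particle, and Psmb7 and Psmb4, beta subunits of the core. Psmd4 had -1.77 (-1.31 and -2.23; limma adjusted p = 0.0191), Psmb7 -1.75 (-1.27 and -2.23; adjusted p = 0.0194) and Psmb4 -1.63 (-0.79 and -2.46; adjusted p = 0.0369). The B arrays minus the day 0 B array gave 0.40 for Psmb4, the opposite sign. The list as a whole differed between the days, with a median of 0.24 on day 2 and -0.93 on day 3. Its 2-day median of -0.26 was close to the -0.24 of all probes and became 0.09 once the dependence on bias was removed.

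Among chromatin factors 2 of 10 passed, both lower, beside 3.85% called lower over all tested probes. Hira, the chaperone that deposits histone H3.3, had -1.75 (-0.99 and -2.51; limma adjusted p = 0.0194). Nap1l1, a chaperone of H2A and H2B, had -1.65 (-0.57 and -2.73; adjusted p = 0.0360). Trim28, a corepressor, had -1.34 (-0.68 and -2.00; adjusted p = 0.13). The list median was -0.96, or -0.71 with the pairs centred, and all 3 genes named had more negative values on day 3.

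Ribosomal protein genes, the most heavily expressed class of a growing cell, had different medians on the days. Of 16 tested probes 15 had a negative mean and 1 passed, beside 69.0% negative and 3.85% called lower over all tested probes. The gene called was Rpl28, at -1.67 (-1.30 and -2.04; limma adjusted p = 0.0279). Rpl12 had -1.48 (-1.15 and -1.80; adjusted p = 0.0706). The list median was 0.00 on day 2 and -1.32 on day 3. These probes also had strongly negative probe bias, a median of -1.96 beside 0.38 over all probes, and the list median of -0.56 became -0.12 once the dependence on bias was removed. Translation factors (10 tested, 0 called) had medians of 0.20 on day 2 and -1.22 on day 3, and mitochondrial respiration genes (10 tested, 0 called) 0.01 and -1.03, beside 0.01 and -0.52 over all probes. Each list had 1 probe at an unadjusted limma p of 0.05, where 13.4% of all tested probes did so and 4.23% were called. Atp5b, the beta subunit of ATP synthase, had -0.28 on day 2 and -2.34 on day 3 (adjusted p = 0.16).

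Proliferation genes are given beside the 4.23% of all tested probes that were called. Of 14 DNA replication probes and 8 mitosis probes none passed. The list medians were -0.34 and -0.37, beside -0.24 over all probes, and became -0.08 and -0.11 with the pairs centred. Mcm7, a subunit of the replicative helicase, had -0.58 (-0.17 and -0.98), and Cdk1, the mitotic kinase, -0.91 (-0.15 and -1.67), with limma adjusted p-values of 0.77 and 0.44. Ect2, a cytokinesis factor, repeated at -1.19 and -0.85 (adjusted p = 0.33), with -0.97 on the day 0 pair. Of 7 cell cycle control probes Cdc37, a co-chaperone that delivers kinases to Hsp90, passed at -1.98 (-1.55 and -2.41; adjusted p = 0.00667).

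The remaining lists had 1 call at most, beside 4.23% called over all tested probes. Bnip3, a mitophagy receptor, passed in the lysosome and autophagy list at -1.75 (-0.67 and -2.82; limma adjusted p = 0.0210), and Pdcd6, a calcium-binding protein, in the apoptosis list at -1.76 (-0.81 and -2.71; adjusted p = 0.0194). Both drew most of their effect from day 3. Solute carriers gave 0 calls among 23 probes, chaperones 0 among 11, RNA splicing genes 0 among 12 and redox genes 0 among 9. At an unadjusted limma p of 0.05 these held 0, 1, 0 and 0 probes, beside 13.4% of all tested probes.

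**Figure D3:**
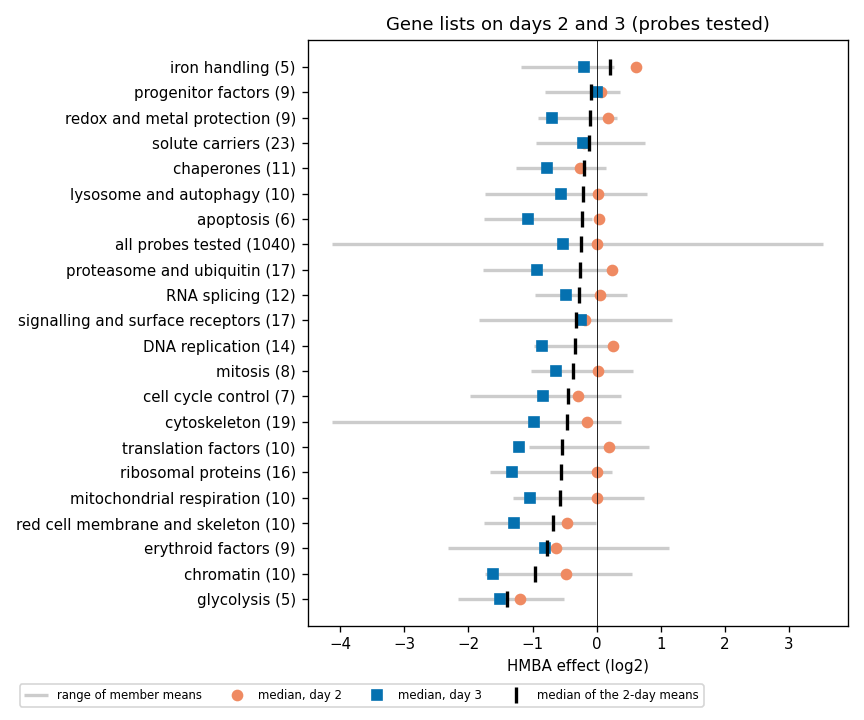
Gene lists with at least 5 tested probes, ordered by their median HMBA effect (log2, x axis), with the number of tested probes in brackets. Grey bars span the members' 2-day means, black ticks mark their median, and circles and squares mark the medians of day 2 and day 3. Most squares lie left of the circles, as for ribosomal proteins (0.00 and -1.32), while glycolysis lies below 0 on both days (-1.19 and -1.50).

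The days were alike in part. Across the 1040 probes the HMBA effects of days 2 and 3 correlated at r = 0.43, over probes that share arrays and bias, and 582 (56.0%) had the same sign on both, 449 lower and 133 higher. The median absolute difference between the days was 0.67. With 1 pair a day, no difference between days 2 and 3 could be tested. S1pr4, another sphingosine-1-phosphate receptor, went from 0.81 to -1.76.

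Other cells would be hard to see on ratio arrays, which report no level. Of the megakaryocyte markers 1 of 6 probes was tested, Itga2b, which is also found on early erythroid cells, at -0.09 (-0.18 and 0.01) with a sign that turned under several settings. Mast cell, myeloid, B cell and T cell lists had 1, 0, 2 and 0 tested probes, and none of these passed. Their part in the results was not tested.

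The same kind of pair on days 5 and 6 allowed a comparison over the 678 probes with values on all 8 arrays. At a limma adjusted p of 0.05 it called 1 probe (0.147%), Psmb4, which was higher on the later days: -0.79 and -2.46 on days 2 and 3 against 0.59 and 2.91 on days 5 and 6, a difference of 3.38 (SE 0.70, limma adjusted p = 9.40e-04). In this fit the prior degrees of freedom were infinite (prior SD 0.70), so all 678 probes share 1 pooled spread. The SE and p of Psmb4 therefore do not reflect the spread of its own days. At an unadjusted p of 0.05 there were 49 probes (7.23%), 47 of them higher later (6.93%). The call did not hold in general: 0 probes passed with values not centred, after quantile normalization, with pairs centred, or without the day 3 or day 6 pair, and 7 passed without the day 2 or day 5 pair.

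No other gene passed in this comparison. Gapdh had 0.87 and 0.71 on days 5 and 6, a difference of 2.42 (limma adjusted p = 0.0894), and Hba-ps3 4.37 and 4.04. H2az1 had 2.40 and 2.69 where days 2 and 3 gave 0.48 and 0.14. Tubb5, a beta-tubulin, had -2.65 and -1.01 where days 2 and 3 gave -0.39 and -0.35, and Ctsl, a lysosomal protease, had 1.33 and 3.31 against 0.80 and -1.17. H1f2 and Selplg stayed on the side of 0 they had on days 2 and 3.

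**Figure D4:**
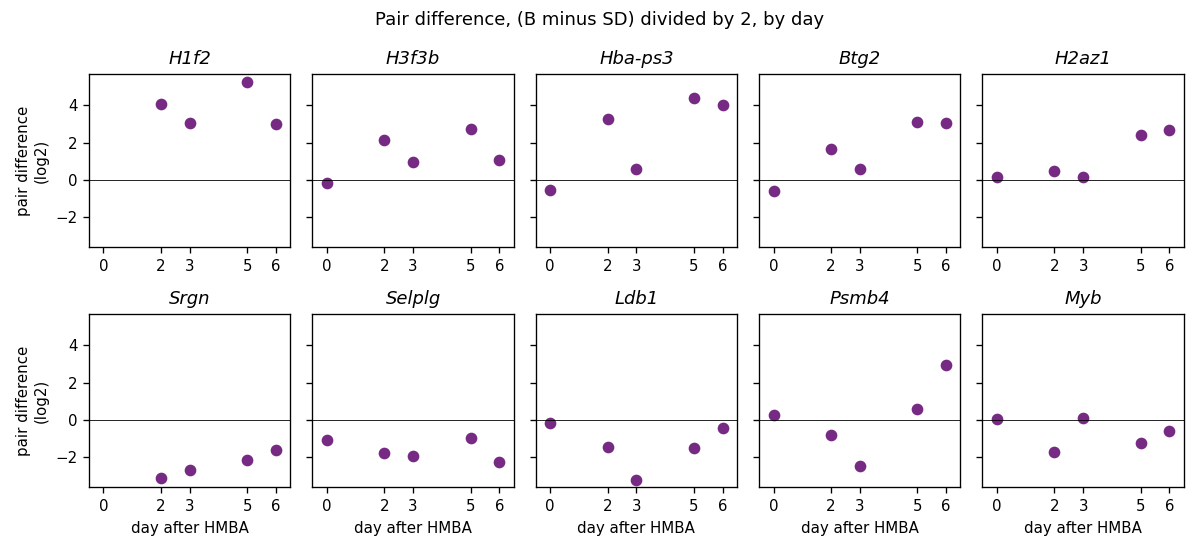
Pair difference, (B minus SD) divided by 2, on a log2 scale (y axis) by day (x axis) for 10 genes, 1 pair a point, with no replicate within a day. Day 0 holds control RNA in both channels and is missing where a gene lacked a value. H1f2 is at 2.98 or above on all 4 HMBA days shown, Srgn and Selplg lie below 0 throughout, and Psmb4 is below 0 on days 2 and 3 and above it on days 5 and 6.

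For the probes called lower as a group, the other pairs and series A gave mixed values. On the day 0 pair 24 of 30 measured probes were below 0 (median -0.59, beside 64.0% and -0.21 over all tested probes), although both channels held control RNA. On day 5 18 of 21 were below 0 (median -1.11, beside 48.6% of all) and on day 6 9 of 29 (median 0.59, beside 39.8%). In series A, which has no swapped partner, 10 of 28 were lower on day 2 than on day 0 (median 0.61, beside 56.3% of all) and 13 of 28 on day 3 (median 0.085, beside 52.8%). Among the called genes named with both series A days, Srm, Golga7, Cdc37, Tpm3, Pdcd6, Nap1l1 and Psmb4 also had a mean of the opposite sign there, between 0.61 and 1.77. Of these, Golga7 (1.66 on day 2 and -0.43 on day 3) and Nap1l1 (-0.15 and 1.78) had days on both sides of 0. Ldb1 (-1.12 and -2.27) and Selplg (-1.86 and -1.13) had the same sign as the pairs on both days. Srgn (0.59 and -3.67), As3mt (0.06 and -0.48), Nudt5 (0.58 and -0.82), Bnip3 (-1.43 and 0.45) and Psmb7 (-0.34 and 0.28) had days on both sides of 0. With day 2 only, Capg (0.78), Arpc1b (1.56), Hira (1.39) and H1f2 (-0.48) had the opposite sign and Stat5b (-1.77) the same. With day 3 only, Pepd (0.53) and Cd47 (0.10) had the opposite sign and Psmd4 (-0.28), Zfpm1 (-0.34) and Rpl28 (-0.89) the same. The day 2 array of series A correlated with the other 17 arrays at r between -0.08 and 0.13, so it stands apart from all of them.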

How the data were processed

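The authors deposited 1 table of log2 ratios with a column for each array. Scanner output was not used here, and the scanner, background correction, normalization, dyes and numerator of the ratio are not given in the sources used here. On the SD arrays the high values are minus the log2 of a ratio rounded to 3 decimals, read from the deposited log2 values themselves. This bears on whether the SD values were already turned before deposit, which was not tested. With the SD arrays read as already turned, 361 probes passed, and H1f2, Capg and Srgn had the opposite sign. Depth does not apply to arrays, and the number of pairs limits the precision.

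Each array was centred on its median. Of the 6868 probes, 6108 had 1 symbol in the platform annotation, 41 several and 719 none, and 6062 symbols were matched to RefSeq through Entrez identifiers. The HMBA effect and probe bias were computed per day for probes with both arrays of the pair, which share their RNA as far as the labels tell and count as 1 replicate. The mean of 2 days was tested against 0 with limma 3.58.1 (R 4.3.3, lmFit and eBayes), with Benjamini-Hochberg adjustment over the 1040 probes and a threshold of 0.05, and days 5 and 6 were compared with days 2 and 3 by a limma contrast over 678 probes. The fit was also run on simulated data with the same normal noise at every probe and a smaller spread than the real pairs. That simulation held no day 3 shift, so it cannot show how the fit handles that shift. Lists are described by counts and medians without a test.

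Named genes are the 10 higher and 10 lower with the smallest p and 1 sign on both days, the 5 greatest rises and falls from day 2 to day 3 at low bias, the 3 higher and 3 lower with the smallest p in the later comparison, up to 4 members a list, and a set of erythroid genes, from which those with most bearing were taken. M003849_01 was named after its values were seen. The members and lists were chosen with earlier results of these data known. Alternatives changed the centring, scaling, filter, fit, spread, reference and sign of the SD arrays, and 2 of them, pair centring and removal of the dependence on bias, were added after seeing the data.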

Additional observations from a re-analysis of the deposited data

Results flagged for a closer look

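Psmb4, a core proteasome subunit, differed between the later and the middle days by 3.38 log2 units in a limma contrast of days 5 and 6 with days 2 and 3 (adjusted p = 9.40e-04), the 1 probe of 678 to pass. That p rests on a spread pooled over all 678 probes and not on the spread of Psmb4 itself. The call was lost with values as deposited, after quantile normalization and with the pairs centred.

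Alas2 gave a signal on an array that the comparison does not use for it, since the SD arrays of days 2 and 3 lacked a value. It read 2.20 on the B array of day 2, above the -0.69 and 1.28 of the day 0 B and SD arrays, while the 1.09 of the day 3 B array lies below the higher of these.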

How the results depend on the processing

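The 44 calls at days 2 and 3 became 45 with values as deposited, 39 with arrays scaled to equal spread, 45 after quantile normalization, 33 with at least 1 complete pair, 33 with the stricter filter and 44 with a robust prior. They became 54 with the pairs centred and 83 with the dependence on bias removed (28 higher, 55 lower). They fell to 10 with 4 single arrays (1 higher, 9 lower), 6 at low bias (1 and 5), 4 with a spread shared with days 5 and 6 (1 and 3) and 1 of 851 against the day 0 pair (0 and 1). They became 361 with the SD arrays read as already turned (230 and 131). The 4 higher calls became 9 with the pairs centred. The 139 probes at an unadjusted p of 0.05 became 260 with at least 1 complete pair, 66 at low bias, 41 against the day 0 pair, 467 with SD arrays read as turned and 233 with the dependence on bias removed. The 55 probes beyond 1 log2 unit became 180 at 0.5 and 5 at 2, and 139 to 290 when 1 day alone was required. The later comparison, with 1 call, gave 0 with values as deposited, 7 with arrays scaled to equal spread, 0 after quantile normalization, 0 with the pairs centred, and 0 to 7 without 1 pair. The median effect of the tested probes was -0.059 with values as deposited and 0.016 with the pairs centred, beside -0.24. The B arrays minus the day 0 B array called 48 of 1433 probes (25 higher, 23 lower), 4 of them among the 44, and the series A arrays minus their day 0 array called 0 of 1561 (205 at an unadjusted limma p of 0.05). The cause of these changes was not tested.

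The B arrays minus the day 0 B array turned the sign of these HMBA effects (log2): Selplg 1.26, Psmb4 0.40, Atp5b 0.63, Adam5 -0.36, Ect2 0.84, Tubb5 0.17, Ctsl 0.14, Itga2b 1.90 and Hbb-b2 0.64. With the SD arrays read as already turned, which makes the effect the probe bias, the sign turned for H1f2 -0.19, Capg 0.68, Srgn 1.18, Pfkl 0.14, Selplg 1.39, Stat5b 0.39, Bnip3 0.19, H3f3b -1.70, Rpl12 0.23, Ldha 0.36, Adam5 -0.017, Tfr2 1.68, Btg2 -0.035, Ect2 1.06, H4c14 -2.88, Macroh2a1 0.78, S1pr4 0.75, Tubb5 1.85, H2az1 -2.41, Itga2b 1.62, Gata1 -0.46 and Hbb-b2 0.43. Against the day 0 pair the sign turned for Macroh2a1 0.088, Itga2b 0.74 and Hbb-b2 0.30. With arrays scaled to equal spread the sign turned for Itga2b 0.012 and Hbb-b2 0.00044. With the dependence on bias removed the sign turned for Fech 0.057, Ctsl 0.14, Itga2b 0.12 and Hbb-b2 0.26. With the pairs centred the sign turned for Ctsl 0.073, Itga2b 0.17 and Hbb-b2 0.21. After quantile normalization the sign turned for Itga2b 0.044 and Hbb-b2 0.023. Among genes with series A values on days 0, 2 and 3, the series A arrays minus the day 0 A array turned the sign of Arhgdib 0.74, Srm 1.30, Pfkl 0.27, Golga7 0.61, Cdc37 1.75, Tpm3 0.67, Pdcd6 1.77, Nap1l1 0.81, Psmb4 0.94, Gapdh 1.95, Ldha 0.51, Adam5 -0.61, Mcm7 0.84 and Ctsl 0.79. These series A values are means of days 2 and 3, which had opposite signs for Arhgdib, Pfkl, Golga7, Nap1l1 and Adam5. With values as deposited the sign turned for Itga2b 0.10 and Hbb-b2 0.14.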
